A study of Mus musculus with 10 samples.

Results

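Transcripts of the insulin-like growth factor (IGF) system were compared between hypertrophied hepatic stellate cell (hypHSC) and quiescent hepatic stellate cell (qHSC) preparations of the mouse liver. The genes were the 10 whose symbol in the deposited table was *Igf1*, *Igf2*, *Igf1r*, *Igf2r*, *Igfbp2*, *Igfbp3*, *Igfbp4*, *Igfbp5*, *Igfbp6* or *Igfbp7*, of the 25233 entries that carry a symbol. Each group had 5 RNAseq libraries from C57BL/6 male mice. The hypHSCs came from mice fed a high-fat diet without choline and low in methionine (CDAHFD), which leads to steatohepatitis and fibrosis. The diet lasted 13 weeks for hypHSC 1 and 2, whose mice were 19 weeks old, and 12 weeks for hypHSC 3, 4 and 5, whose mice were 18 weeks old. Mice of 36 weeks (qHSC 1, 2 and 5) or 34 weeks (qHSC 3 and 4), fed the standard diet, gave the qHSCs. Livers were dissociated enzymatically in situ, more strongly for the CDAHFD mice, and floating cells of a density gradient were sorted on their own fluorescence, with a green gate for hypHSCs and a blue gate for qHSCs. Antibiotics were added to the buffers for the CDAHFD mice only. Diet, age, digestion, antibiotics and gate therefore differed together and cannot be told apart. The paper chose the hypHSC preparations with the highest RNA integrity. It reports no difference between their mean integrity, which was the lower one, and that of the qHSC preparations. Over more sorted preparations, it reports that integrity differed between the groups. The mouse behind each library is not given in the sources used here, so that n counts preparations, and the p-values measure the spread between them, which may be technical.

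IGF1 and IGF2 are secreted growth factors, and in the liver the hepatocyte is the best known source of circulating IGF1. Both act through the receptor tyrosine kinase IGF1R, while IGF2R, which is also the large mannose 6-phosphate receptor, carries IGF2 and lysosomal enzymes to the lysosome. The IGF binding proteins hold IGFs in the extracellular fluid and lengthen or block their action, and IGFBP7 is a related protein with low affinity for IGFs.

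The labels of the groups were checked against cell type markers. Of the 12 hepatic stellate cell markers, 11 were lower in hypHSCs. Their summed level was 34720.5 to 68405 normalized counts in hypHSCs and 1389789 to 2279279 in qHSCs, and *Lrat*, the retinol esterifying enzyme, had a mean of 1593 against 105815. Of the 13 macrophage markers, 10 were higher in hypHSCs and 0 lower, with sums of 1033355 to 1535084 against 3200 to 84235. The other 3 were not called. Their means in hypHSCs and qHSCs were 4930 and 5953 for *Clec4f*, 1161 and 661 for *Marco*, and 17.8 and 505 for *Timd4* (log2 fold change -3.14). The mean of the lysozyme gene *Lyz2* was 845672 in hypHSCs and 10586 in qHSCs, and that of *Cd68*, a macrophage lysosomal glycoprotein, was 157272 and 2603. None of these 25 markers was at 0 in every library of a group. The transcripts of these marker lists thus go against the label, and the name hypHSC is used below only as the label of the libraries. The paper rests the label on fluorescent droplets and on staining for desmin, cellular retinol binding protein and smooth muscle actin. Before sorting, it saw no macrophage surface protein on droplet cells. It also reports lower *Lrat*, *Gfap* and *Des*, which it counts as quiescence markers, and higher *Cd68*. *Acta2* and collagen genes were unregulated there, and the paper proposes a hybrid profile. In these bulk samples, fewer cells of a type and less RNA per cell cannot be told apart. Among the qHSCs, qHSC 1 and qHSC 4 had the highest macrophage marker sums (38820.0 and 84235), and the other 3 had 3200 to 7201. Hepatocyte marker sums were 9317 to 102524 in hypHSCs and 20199 to 73871 in qHSCs, with hypHSC 4 and 5 the highest of their group and 0 of 8 markers called. Cholangiocyte marker sums were 436 to 2711 against 4.72 to 56.1 (3 of 3 tested markers higher). Sinusoidal endothelial sums were 5598 to 7198 against 987 to 2535 (3 of 7 tested markers higher and 1 lower). Portal fibroblast sums were 225 to 2713 against 294 to 595 (3 of 5 higher) and mesothelial sums 203 to 613 against 54.8 to 134 (1 of 2 higher). The part of these cell types in the differences below was not tested. Reads counted on genes with a symbol were 30534719 to 43283589 in hypHSCs and 35640104 to 47317028 in qHSCs, and a floor of 3 reads equals 2.25 to 4.54 normalized counts. This floor covers counting error only, since amplified reads are not independent molecules.

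Levels are given in normalized counts, which are read counts divided by 1 size factor per library. Of the 10 genes, 9 reached 10 normalized counts in 5 or more libraries, a filter that a gene could pass through 1 group alone. These 9 were tested with limma on log2(normalized count + 1), in which the added count can shrink the change of low genes. Fold changes compare means of log2 values, so that a fitted fold can also exceed the ratio of the means. For *Igfbp3* the fitted fold was 42.3 and the ratio of the means 26.1. A gene was called differentially expressed (DEG) when its log2 fold change was 1 or more in either direction with a Benjamini-Hochberg adjusted p no higher than 0.05 over all 14630 genes tested. By this rule 3 of the 9 tested genes were higher in hypHSCs (*Igf1*, *Igf2r* and *Igfbp6*), against 17.8% of all tested genes. Another 4 were lower (*Igf1r*, *Igfbp3*, *Igfbp4* and *Igfbp7*), against 21.7% of all tested genes. *Igfbp2* and *Igfbp5* were tested and were not DEGs, and *Igf2* did not pass the filter. In either direction 7 of the 9 were DEGs, and for 6 of the 9 the groups did not overlap. Of all tested genes 39.5% were DEGs, and groups that did not overlap were likewise found for 39.5% of them. The median log2 fold change of the 9 tested genes was 0.03, and that of all tested genes was -0.20.

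**Figure D1:**
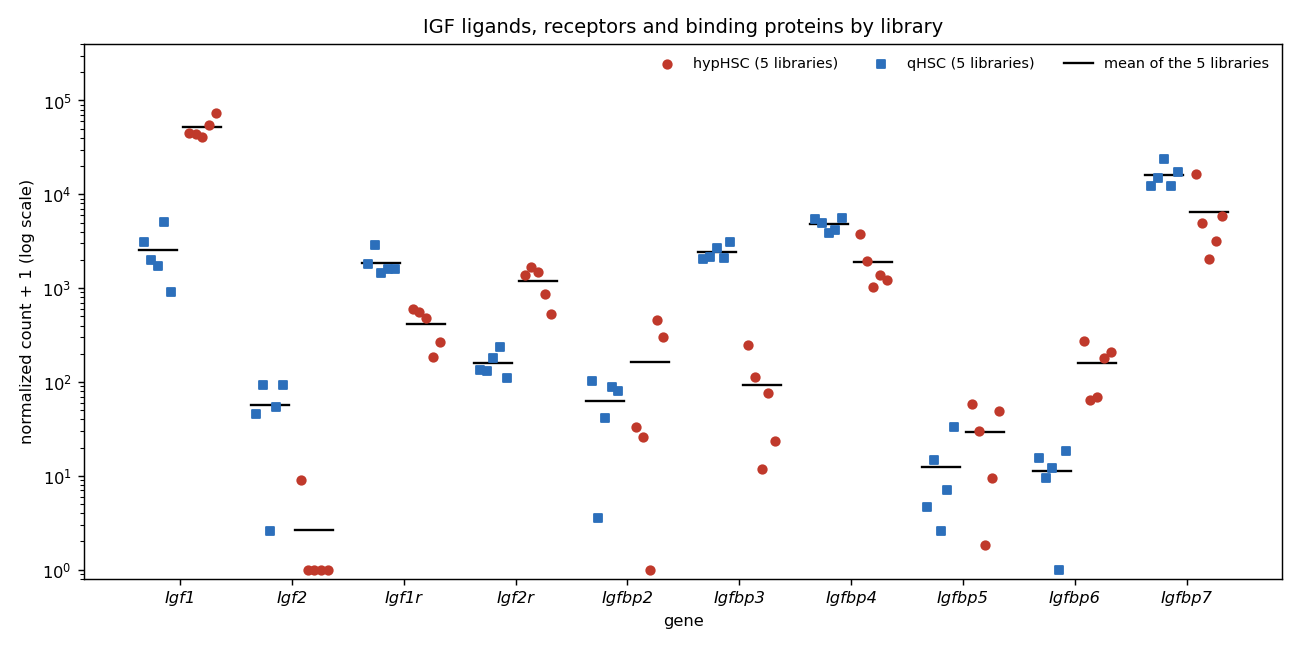
Normalized count + 1 on a log axis for each of the 10 genes, with hypHSC libraries as circles, qHSC libraries as squares (5 each, placed by replicate number) and the group mean as a bar. *Igf1*, *Igf2r* and *Igfbp6* lie higher in all hypHSC libraries, *Igf1r*, *Igfbp3* and *Igfbp4* lower in all, and hypHSC 1 lies within the qHSC range for *Igfbp7*.

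The 250 bases before the RefSeq start site are shown for both receptors, for *Igf1*, which rose most, and for *Igfbp3*, which fell most, because members of one family with opposite changes can then be compared by base composition and motifs. All 10 genes matched the RefSeq promoter table, which is on GRCm38.p6, whereas the gene positions below follow the deposited table, which uses GRCm39. Each sequence reads 5′ to 3′ on the strand of its gene, and capitals mark a GC box (GGGCGG) or an E-box (CACGTG) on either strand. The regions are chr10:87860861-87861110 (plus strand) for *Igf1*, chr17:12769707-12769956 (minus) for *Igf2r*, chr7:67952007-67952256 (plus) for *Igf1r* and chr11:7213924-7214173 (minus) for *Igfbp3*.
Igf1: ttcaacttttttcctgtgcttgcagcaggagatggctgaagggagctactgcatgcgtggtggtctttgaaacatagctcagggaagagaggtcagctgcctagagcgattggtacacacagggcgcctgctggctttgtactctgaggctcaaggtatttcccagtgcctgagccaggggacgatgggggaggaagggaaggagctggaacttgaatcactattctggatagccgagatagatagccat
Igf2r: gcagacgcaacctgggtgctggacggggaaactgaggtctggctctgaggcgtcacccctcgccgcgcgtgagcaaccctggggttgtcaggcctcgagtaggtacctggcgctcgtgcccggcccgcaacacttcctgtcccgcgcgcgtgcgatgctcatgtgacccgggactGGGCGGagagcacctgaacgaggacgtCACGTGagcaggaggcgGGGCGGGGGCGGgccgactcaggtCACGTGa
Igf1r: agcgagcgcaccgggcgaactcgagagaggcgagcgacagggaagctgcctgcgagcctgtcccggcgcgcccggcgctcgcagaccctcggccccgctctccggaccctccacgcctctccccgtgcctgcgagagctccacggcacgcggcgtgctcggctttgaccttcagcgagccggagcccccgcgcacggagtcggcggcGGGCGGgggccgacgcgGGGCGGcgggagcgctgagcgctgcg
Igfbp3: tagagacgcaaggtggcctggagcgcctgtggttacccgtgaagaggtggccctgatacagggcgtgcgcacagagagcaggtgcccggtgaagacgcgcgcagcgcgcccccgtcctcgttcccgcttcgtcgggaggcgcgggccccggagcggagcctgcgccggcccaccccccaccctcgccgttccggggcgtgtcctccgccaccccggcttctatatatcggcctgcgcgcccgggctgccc
The *Igf1* region held 5 CpG pairs and none of the motifs searched. That of *Igf2r* held 27 CpG pairs, E-boxes 48 and 7 bases before the start, and GC boxes 75, 31 and 25 bases before it, of which the last 2 adjoin each other. That of *Igf1r* held 42 CpG pairs, more than 99.1% of the promoters of the table, and GC boxes at 43 and 26 bases. That of *Igfbp3* held 32 CpG pairs and no match. Over the 32851 promoters of the table the median was 6 CpG pairs, 6.02% held an E-box and 32.7% a GC box. Also searched were the TATA box (TATAAA, 12.4% of promoters) and an ETS core of the PU.1 type (GAGGAAGT, 2.44%). Of the 4 regions shown none held these exact letters on either strand. Variants were not searched, such as the tatatat near the end of the *Igfbp3* region. These counts describe letters in a window only.

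*Igf1* (chromosome 10, 87694126 to 87772909) was, per length, the most abundant of the 10 genes in hypHSCs. It had 45043, 43733, 40830.1, 54852 and 74029.9 normalized counts in hypHSC 1 to 5, and 3129, 2012, 1716, 5019 and 915 in qHSC 1 to 5. The lowest hypHSC library thus stood far above the highest qHSC library, and hypHSC 5 and qHSC 4 were the highest of their groups. The means were 51698 ± 13551 and 2558 ± 1588 (SD, n = 5 libraries per group). The log2 fold change was 4.53 (standard error, SE, 0.39, 95% interval 3.67 to 5.39, adjusted p = 4.99e-06 by limma), a fitted fold of 23.1, and the exact two-sided permutation test of 5 libraries against 5 gave p = 0.00794, the smallest that this design allows. As FPKM, reads per exon length and library depth, the level was 119 ± 19.1 FPKM in hypHSCs, rank 318 of the genes with an exon length, and 7.70 ± 4.81 FPKM in qHSCs, rank 3191. Its rise was the 549th largest of the 14630 tested genes.

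The order of *Igf1* within the groups is given beside that of the macrophage marker sums. In hypHSCs these sums are mostly *Lyz2*, *Cd68* and *Gpnmb*, a further marker of the list, so that their order rests on these genes. Of the qHSCs, qHSC 4 and qHSC 1 had the highest *Igf1* and the highest sums, while qHSC 2 had the lowest sum (3200) and the third highest *Igf1*. Of the hypHSCs, hypHSC 5 had the highest *Igf1* and the lowest sum (1033355), and hypHSC 2 had the highest sum (1535084) and the second lowest *Igf1*. Leaving out qHSC 1 and 4, which could only raise the log2 fold change because they were the highest qHSCs in *Igf1*, gave 5.10. Hepatocyte marker sums overlapped between the groups, and the part of either cell type in *Igf1* was not tested. The genes whose profile over the 10 libraries lay nearest to that of *Igf1*, of 10791 compared, included *Ifi30* (root mean square distance 0.34 on the log2 scale) and *Ccl3* (0.35). *Ifi30* encodes a lysosomal thiol reductase and *Ccl3* a chemokine. The distance compares log2 values over the 10 libraries, each gene centred on its own mean, and says nothing of shared control.

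**Figure D2:**
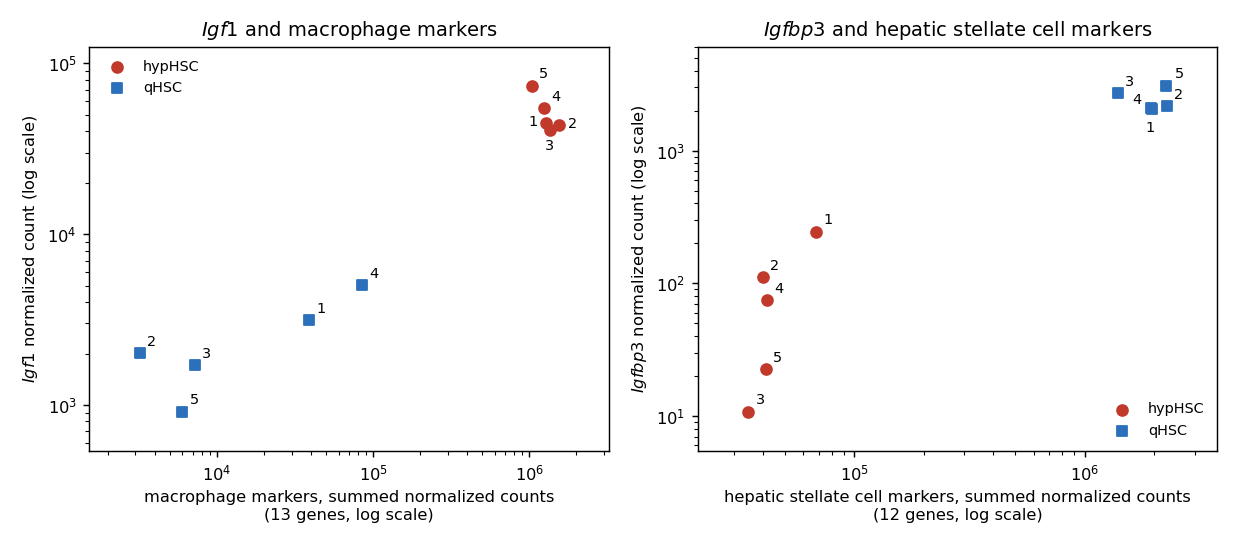
Left, *Igf1* against the summed normalized counts of 13 macrophage markers. Right, *Igfbp3* against those of 12 hepatic stellate cell markers, both on log axes with hypHSCs as circles, qHSCs as squares and the replicate number beside each point. The groups lie in opposite corners, and within the groups the order differs. qHSC 1 and 4 are highest in *Igf1* and in macrophage markers, whereas hypHSC 5 is highest in *Igf1* and lowest in these markers.

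*Igf2* (chromosome 7, 142204505 to 142220553), the second ligand and an imprinted fetal growth factor, was low in both groups. hypHSC 1 had 8.09 normalized counts and the other 4 hypHSC libraries had 0, which at a floor of 3 reads allows up to 2.49 to 4.54 normalized counts. In qHSC 1 to 5 it had 44.35, 91.2, 1.57, 53.05 and 91.4. Thus 4 qHSC libraries stood above all hypHSC libraries, and qHSC 3 fell within their range. The exact two-sided permutation test gave p = 0.0159. In a fit without the filter on low values, *Igf2* had a log2 fold change of -4.50 (adjusted p = 0.00598 by limma), a size that depends on the added count. Of its exon bases, 65.5% lie under other annotated transcripts (*Gm33148*, *Gm49394* and *Igf2os*), and the libraries keep no strand, so their reads cannot be told apart. *H19*, the imprinted noncoding RNA next to *Igf2*, was at 0 in all 10 libraries.

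The 2 receptors moved in opposite directions. *Igf1r* (chromosome 7, 67602005 to 67883415), the signalling receptor, had 598, 562, 476.5, 181 and 266 normalized counts in hypHSC 1 to 5. In qHSC 1 to 5 it had 1789, 2853, 1466, 1588 and 1604. No hypHSC library reached the lowest qHSC library, and hypHSC 4 and 5 were the lowest. The means were 417 ± 184 and 1860.1 ± 567 (n = 5), and the log2 fold change was -2.25 (SE 0.35, adjusted p = 0.000290 by limma, exact permutation p = 0.00794). The related insulin receptor *Insr* had 271 ± 59.6 and 312 ± 87.8, with a log2 fold change of -0.19 (95% interval -0.76 to 0.39, adjusted p = 0.579 by limma). The FPKM of *Igf1r* was 0.635 to 1.57 times that of *Insr* in hypHSCs (median 1.15) and 2.79 to 5.60 times in qHSCs (median 4.32), so that the ranges of this ratio did not overlap.

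*Igf2r* (chromosome 17, 12901293 to 12988593) had 1389, 1683, 1478, 863 and 528 normalized counts in hypHSC 1 to 5 and 134, 131, 177, 233 and 109 in qHSC 1 to 5. Every hypHSC library was above every qHSC library, with hypHSC 5 the lowest of its group. The means were 1188 ± 477 and 157 ± 49.0 (n = 5), and the log2 fold change was 2.85 (SE 0.35, adjusted p = 5.86e-05 by limma, exact permutation p = 0.00794). *M6pr*, which encodes the small mannose 6-phosphate receptor, had means of 19826 ± 3922 and 13078 ± 877, and a log2 fold change of 0.58 (adjusted p = 0.020 by limma), below the fold criterion. The FPKM of *Igf2r* was 0.0199 to 0.0367 times that of *M6pr* in hypHSCs and 0.00375 to 0.00901 times in qHSCs. *Igf2r* therefore stayed far below *M6pr* per length in both groups.

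**Figure D3:**
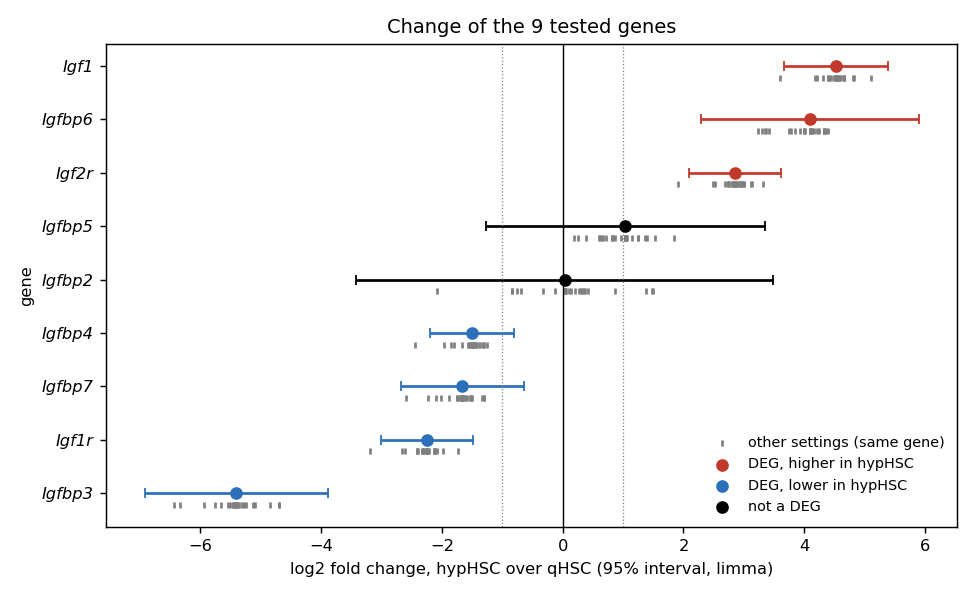
Log2 fold change of hypHSC over qHSC for the 9 tested genes, with the 95% interval of limma, DEGs that were higher or lower in colour, other genes in black, and the values under other processing settings as grey ticks. Dotted lines mark a log2 fold change of 1 in either direction, and the interval of *Igfbp2* runs from -3.41 to 3.48.

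Among the binding proteins, *Igfbp3* (chromosome 11, 7156095 to 7163923), the main IGF carrier of serum, had the largest fall. It had 245, 111, 10.8, 74.5 and 22.7 normalized counts in hypHSC 1 to 5, and 2063, 2165, 2706, 2097 and 3082 in qHSC 1 to 5. The hypHSC libraries spread widely, with hypHSC 3 the lowest, and all lay well under the qHSC libraries. The means were 92.8 ± 94.3 and 2423 ± 452 (n = 5), with a log2 fold change of -5.40 (SE 0.69, 95% interval -6.92 to -3.88, adjusted p = 8.19e-05 by limma, exact permutation p = 0.00794). It was the 242nd largest fall of all tested genes. Its FPKM rank went from 1602 in qHSCs to 9204 in hypHSCs. The highest hypHSC library, hypHSC 1, was also the one with the highest sums of stellate cell (68405, the others 34720.5 to 41905), portal fibroblast (2713), mesothelial (613) and cholangiocyte (2711) markers. Within the qHSCs, qHSC 3 had the lowest stellate cell marker sum (1389789) and the second highest *Igfbp3*. The nearest profiles were those of *Myl9* (distance 0.61), a myosin light chain of contractile cells, *Foxf1* (0.76), a mesenchymal transcription factor, and *Ndrg2* (0.78).

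*Igfbp4* (chromosome 11, 98932068 to 98945217), an inhibitory binding protein that is cleaved by PAPPA, had 3799, 1969, 1034.5, 1389 and 1233 normalized counts in hypHSC 1 to 5 and 5419.65, 4918, 3852, 4177 and 5572 in qHSC 1 to 5. The groups came close to each other at hypHSC 1 and qHSC 3 but did not overlap. The means were 1885 ± 1125 and 4788 ± 755 (n = 5), with a log2 fold change of -1.50 (SE 0.32, adjusted p = 0.00238 by limma, exact permutation p = 0.00794). 

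*Igfbp7* (chromosome 5, 77497090 to 77555893), a secreted protein of vessels and matrix, was, per length, the most abundant of the family in qHSCs. It had 16274, 4897, 2048, 3154 and 5812 normalized counts in hypHSC 1 to 5, and 12366, 15028, 23725, 12360.4 and 17332 in qHSC 1 to 5. hypHSC 1 fell inside the qHSC range, and the other 4 hypHSC libraries were below it. The means were 6437 ± 5691 and 16162 ± 4709 (n = 5), with a log2 fold change of -1.66 (SE 0.46, adjusted p = 0.0120 by limma, exact permutation p = 0.0317). With the qHSCs of 36 weeks only, the log2 fold change was -1.57 and the call was lost (adjusted p = 0.0562 by limma). Of its exon bases, 13.7% overlap *Polr2b* on the other strand.

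*Igfbp6* (chromosome 15, 102052621 to 102057946), which binds IGF2 in preference to IGF1, was the binding protein that rose. It had 271, 63.15, 69.0, 180.45 and 210.2 normalized counts in hypHSC 1 to 5, and 14.5, 8.52, 11.0, 0 and 17.2 in qHSC 1 to 5. Every hypHSC library was above every qHSC library, though qHSC reads numbered only 0 to 23. The gene passed the filter through the hypHSCs, in which it is high, while qHSC 2 and 4 stayed below 10 normalized counts. The means were 159 ± 90.7 and 10.3 ± 6.62 (n = 5), with a log2 fold change of 4.09 (SE 0.82, adjusted p = 0.00174 by limma, exact permutation p = 0.00794). Without qHSC 4, the library with no read, the log2 fold change was 3.34. Portal fibroblast and mesothelial markers, of cells outside the sinusoid, were also highest in hypHSC 1 (sums of 2713 and 613) and lowest in hypHSC 5 (225 and 203), which had the second highest *Igfbp6*.

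*Igfbp2* (chromosome 1, 72863639 to 72891628), a binding protein that hepatocytes make, had 32.3, 24.85, 0, 461 and 299 normalized counts in hypHSC 1 to 5 and 101, 2.56, 40.15, 88.1 and 78.7 in qHSC 1 to 5. hypHSC 4 and 5 stood above all qHSC libraries, and the other 3 hypHSC libraries were within or below the qHSC range. The log2 fold change was 0.03 (95% interval -3.41 to 3.48, adjusted p = 0.988 by limma), an interval wide enough to hold large changes either way. hypHSC 4 and 5 also had the highest hepatocyte marker sums of their group (49917 and 102524), and the part of these was not tested. Leaving out these 2 libraries, which could only lower the log2 fold change because they were the highest in *Igfbp2*, gave -2.08 (adjusted p = 0.230 by limma). *Igfbp5* (chromosome 1, 72897093 to 72914045), its neighbour on the chromosome, had 56.6, 29.0, 0.83, 8.39 and 48.4 in hypHSC 1 to 5 and 3.62, 13.6, 1.57, 5.99 and 32.2 in qHSC 1 to 5. The groups overlapped, and the log2 fold change was 1.04 (95% interval -1.27 to 3.34, adjusted p = 0.440 by limma).

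Compared per length, the binding proteins kept *Igfbp7* first and *Igfbp4* second in both groups while the total differed. *Igfbp1* was included here so that the sum covers *Igfbp1* to *Igfbp7*. The sum was 18.4 to 101 FPKM in hypHSCs (median 35.8) and 119 to 197 FPKM in qHSCs (median 136), without overlap. In qHSCs the order was *Igfbp7* with 91.0 ± 29.6 FPKM, *Igfbp4* with 32.9 ± 4.15 and *Igfbp3* with 20.7 ± 3.51, and the libraries of these 3 did not overlap. In hypHSCs *Igfbp7* (28.1 ± 25.5 FPKM) and *Igfbp4* (10.2 ± 6.27) overlapped. *Igfbp6* (2.68 ± 1.48 FPKM) was above *Igfbp3* (0.624 ± 0.647) in each of the 5 hypHSC libraries, and *Igfbp2* (1.73 ± 2.17) and *Igfbp1* (1.06 ± 1.18) overlapped with both. As a share of the sum, *Igfbp7* made up 58.6% ± 10.3 in hypHSCs and 60.9% ± 6.80 in qHSCs, and *Igfbp4* 25.1% ± 7.83 and 23.2% ± 5.36. The share of *Igfbp3* was 1.23% ± 0.784 against 14.2% ± 1.38, and that of *Igfbp6* was 6.74% ± 2.74 against 0.15% ± 0.099 (n = 5 each, no test). Neither share overlapped between the groups. The FPKM of *Igf1* was 1.06 to 6.01 times the binding protein sum in hypHSCs (median 4.01) and 0.0165 to 0.127 times in qHSCs (median 0.0437).

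**Figure D4:**
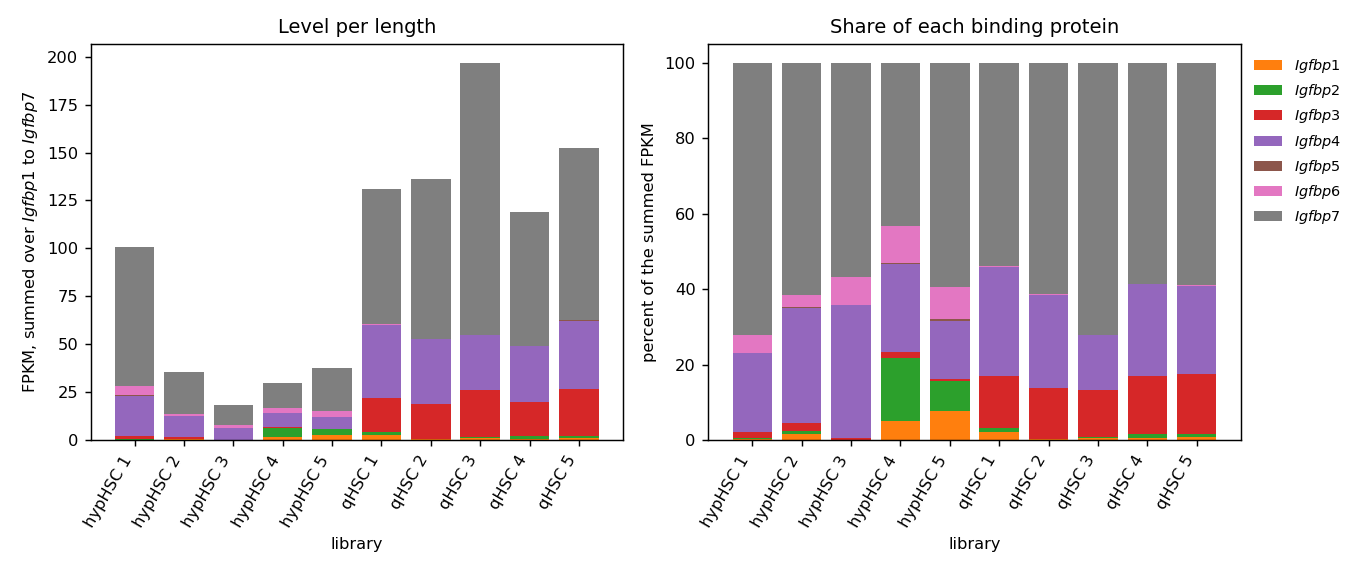
Stacked FPKM of *Igfbp1* to *Igfbp7* in each library on the left, and each gene as a percent of the library's sum on the right. The sum is 18.4 to 101 FPKM in hypHSCs and 119 to 197 in qHSCs, and the *Igfbp3* layer, 14.2% on average in qHSCs, is 1.23% in hypHSCs.

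The hypHSC libraries of 13 and 12 weeks are given side by side without a test, since 2 libraries against 3 are too few for the permutation test to pass its threshold. *Igf1* was 43733 to 45043 normalized counts at 13 weeks and 40830.1 to 74029.9 at 12 weeks, so that the ranges overlapped. *Igf1r* was 562 to 598 at 13 weeks and 181 to 476.5 at 12 weeks, *Igfbp3* 111 to 245 and 10.8 to 74.5, and *Igfbp4* 1969 to 3799 and 1034.5 to 1389. For these 3 genes, picked by their values from the 10, both 13-week libraries lay above the 12-week libraries, that is, nearer to the qHSCs. The ranges of the other genes overlapped. Groups of 2 and 3 libraries often separate by chance, and the share of all genes that do so was not computed. The 13-week libraries also had more reads on entries without a symbol (29.1% and 20.1%, against 10.8% to 13.2% at 12 weeks and 8.98% to 10.2% in qHSCs) and the highest portal fibroblast marker sums (2713 and 1589, against 225 to 1086), and the part of these was not tested. With the hypHSCs of 12 weeks only, the log2 fold change of *Igfbp3* was -6.44 and that of *Igfbp7* was -2.23. The 13-week mice were also older, so that diet time and age cannot be told apart here.

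The other genes of the IGF pathway were counted in 5 lists of 73 genes, of which 63 were tested. Of these, 12 were higher and 13 lower in hypHSCs, 39.7% of those tested, close to the 39.5% of all genes. The split depends on the scaling of the libraries: with libraries scaled to the same total it was 10 higher and 18 lower, and with 3 qPCR reference genes (*Hprt*, *Pgk1* and *Actb*) 9 higher and 27 lower. The share of DEGs that were higher thus went from 48% to 35.7% and 25%, and over all tested genes it went from 45.0% to 32.4% and 17.4%, a shift in the same direction. Among 8 tested genes of IGF storage and release, 1 was higher and 2 were lower, which is 37.5% called, near the 39.5% of all genes. *Htra1*, a secreted serine protease, rose from 35.4 ± 15.2 normalized counts in qHSCs to 232 ± 132 in hypHSCs (log2 fold change 2.60, adjusted p = 0.000842 by limma). The related *Htra3* fell from 186 ± 83.1 to 14.7 ± 7.10 (-3.65, adjusted p = 0.000351 by limma). *Igfals*, which encodes the acid labile subunit of the serum IGF complex, was lower but scarce, at 13.1 ± 18.3 in hypHSCs against 51.8 ± 18.8 in qHSCs (-3.60, adjusted p = 0.0236 by limma). *Pappa*, the protease that cleaves IGFBP4, had 25.6 ± 32.7 in qHSCs and 38.2 ± 24.6 in hypHSCs (adjusted p = 0.420 by limma). *Igfbp1*, a binding protein of hepatocytes, had 71.2 ± 50.9 in qHSCs and 82.7 ± 96.3 in hypHSCs. Its log2 fold change was -0.83 (adjusted p = 0.571 by limma), opposite in sign to the difference of the means, with hypHSC libraries from 0.83 to 236.

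Of 36 tested genes of insulin and IGF receptor signalling, 9 were higher and 7 lower, which is 44.4% called, near the 39.5% of all tested genes. *Irs1*, a receptor substrate, had 37.1 ± 44.9 normalized counts in hypHSCs against 717 ± 128 (log2 fold change -4.90, SE 0.62, adjusted p = 7.21e-05 by limma), with 115 in the highest hypHSC library and 598 in the lowest qHSC library. Another substrate gene, *Irs2*, had 463 ± 132 and 285 ± 97.4 and was not a DEG (0.72, adjusted p = 0.0897 by limma). *Grb10*, an adaptor that restrains both receptors, was lower, at 257 ± 101 against 2296 ± 231 (-3.26, SE 0.30). Among the phosphoinositide 3-kinase subunits, the catalytic *Pik3cg* was higher, at 734 ± 541 against 24.5 ± 29.9 (5.92, SE 1.14), and the regulatory *Pik3r3* lower, at 13.7 ± 13.0 against 267 ± 33.03 (-5.32, SE 1.0). *Inpp5d*, which encodes the phosphatase SHIP1 of blood cells, was higher, at 1442 ± 947 against 109 ± 135 (4.13, SE 0.74).

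In the growth hormone axis, which drives *Igf1* transcription in hepatocytes, 0 of 8 tested genes were higher and 2 were lower, which is 25% called, against 39.5% of all tested genes. The growth hormone receptor gene *Ghr* had 154 ± 109 normalized counts in hypHSCs against 697 ± 157 (log2 fold change -2.37, adjusted p = 0.000546 by limma). *Socs3*, a feedback inhibitor of cytokine receptors, had 131 ± 92.6 and 873 ± 279 (-2.85, adjusted p = 0.000165 by limma). Groups did not overlap for either gene. Of the 3 tested genes of *Igf2* RNA binding and imprinted partners, 1 was higher and 1 lower (66.7% called). *Igf2bp2*, which binds the *Igf2* transcript, was higher (813.5 ± 491 against 24.4 ± 14.3, log2 fold change 4.91). The imprinted zinc finger gene *Plagl1* was lower (6.83 ± 7.11 against 170 ± 67.1, -5.20). Of 8 tested genes of mannose 6-phosphate sorting, 1 was higher and 1 lower, which is 25% called, below the 39.5% of all tested genes. *Gnptab*, the catalytic subunit precursor of the enzyme that tags lysosomal proteins, was higher (830.5 ± 137 against 189 ± 56.9, 2.18). Its partner subunit *Gnptg* was lower (1203 ± 561 against 2708 ± 313, -1.39, adjusted p = 0.0178 by limma).

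**Figure D5:**
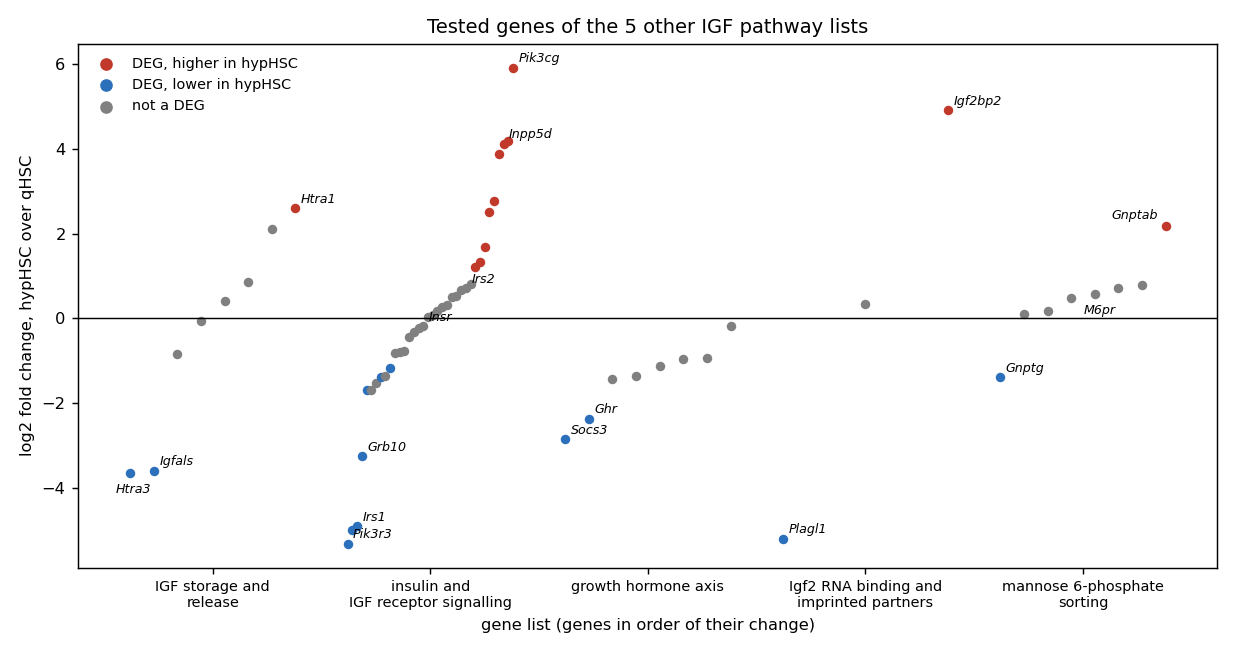
Log2 fold change of hypHSC over qHSC for the 63 tested genes of 5 IGF pathway lists, ordered within each list, with DEGs that were higher or lower in colour and other genes in grey. DEGs of both directions occur in every list except the growth hormone axis, in which 2 of 8 genes are DEGs and both are lower.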

How the data were processed

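The authors reverse-transcribed polyadenylated RNA of sorted cells, sequenced it without keeping the strand, mapped reads to mm39 with STAR, counted them per gene with featureCounts and deposited these counts divided by DESeq2 size factors, a signal called the normalized count. Multiplying each library by its size factor (0.661 to 1.20 in hypHSCs, 1.10 to 1.33 in qHSCs) returned whole reads for 100% of the values, meaning that the nearest whole number divided by the factor lay within 0.01 of the deposited value. Reads on genes with a symbol numbered 30534719 to 47317028 per library.

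Since the deposited values are not counts, the main test was limma 3.58.1 (R 4.3.3, intensity trend) on log2(normalized count + 1), all 10 libraries, no covariates. Single genes were also compared by exact two-sided permutation of the group labels. DESeq2 1.42.0 and edgeR 4.0.16 on the recovered reads, other pseudocounts, filters and scalings, the replicate number as a block, subsets of libraries and each library left out were alternatives. FPKM used the recovered reads and GENCODE exon lengths of 23184 genes. Among the steps, the fits were tested on simulated counts, in which far fewer genes changed than were called here, equally in both directions.

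The genes, lists and markers were chosen with earlier results of these data known. Named pathway genes are, per list, up to 5 DEGs with a mean of 100 or more in a group, by size of change, plus *Insr*, *Irs1*, *Irs2*, *Ghr*, *Igfbp1*, *Igfals*, *Pappa*, *M6pr* and *H19*. The nearest profiles are the 3 genes with the smallest distance to the gene with the largest rise and to that with the largest fall, of which 1 is not reported here.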

Additional observations from a re-analysis of the deposited data

Results flagged for a closer look

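Dixon's ratio was taken on log2(normalized count + 1) in 20 groups (10 genes in 5 hypHSC and 5 qHSC libraries). In 4 of these groups 1 library stood apart from the others. Chance alone gives this for about 1 in 20 groups of normally spread values. Counts near 0 are not spread so, and the log2 scale widens the gaps between them. *Igf2* had 8.09 normalized counts in hypHSC 1 and 0 in the other 4 hypHSC libraries, a tie against which any other value stands apart. *Igf2* had 1.57 in qHSC 3, against 44.35 to 91.4 in the other qHSC libraries. *Igfbp2* had 2.56 in qHSC 2, against 40.15 to 101. *Igfbp6* had 0 in qHSC 4, against 8.52 to 17.2 in the other qHSC libraries. All 4 values rest on few reads.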

How the results depend on the processing

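The DEG calls of *Igf1*, *Igf1r*, *Igf2r*, *Igfbp3*, *Igfbp4* and *Igfbp6* were kept under every alternative that tested them (26 each, 25 for *Igfbp6*, which a mean of at least 100 removes together with *Igfbp5*). *Igfbp7* lost its call with qHSCs of 36 weeks only (-1.57), and the cause was not tested. *Igf2* was tested without the low-value filter only, where it was lower (-4.50). The sign of *Igfbp2*, never a DEG, turned negative with a pseudocount of 0.5 (-0.13), equal totals (-0.32), 3 qPCR reference genes (-0.76), hypHSC 1, 2 and 3 only (-2.08), and without hypHSC 4, hypHSC 5 or qHSC 2, and ranged from -0.84 to 1.37 with 1 library left out, while DESeq2 and edgeR on recovered reads gave 1.5 and 1.48. Including entries without a symbol gave 9291 DEGs against 5779, by testing more entries. Shares from normalized counts in place of FPKM were 10.4% for *Igfbp3* in qHSCs, 2.08% and 0.0425% for *Igfbp6* in hypHSCs and qHSCs, and 68.9% and 67.9% for *Igfbp7*, since exon length no longer divides the counts. Scaling on the reference genes shifted the median log2 fold change of all genes by -0.94, and equal totals shifted it by -0.35. Pathway DEGs were 23 to 26 and all DEGs 5241 to 5914 with 1 library left out. Same-numbered libraries deviated together with correlations of 0.0082 to 0.129. Correlations between different numbers were not computed, so these values cannot show whether the numbers pair the libraries. The fit with the replicate block gave 5786 DEGs and 25 pathway DEGs. Depth limits *Igf2*, *Igfbp5* and *Igfbp6*, which had few reads.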
